A study of Mus musculus with 9 samples.

Results

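The genes described are the 10 that encode the shared chains of the T-cell receptor and its coreceptors: the CD3 chains Cd3d, Cd3e, Cd3g and Cd247, the constant regions Trac, Trbc1 and Trbc2, and the coreceptors Cd4, Cd8a and Cd8b1. They were taken by symbol from the 31053 genes counted in the series, and all 10 were found. Bone marrow was collected from the femurs of 9 untreated female mice, 3 each of the inbred strain NZB (New Zealand Black), the inbred strain NZW (New Zealand White) and their F1 hybrid NZBWF1, a model of lupus. The mice came from 1 vendor, ate standard chow and were studied at 9 to 10 weeks of age. Each mouse gave 1 single cell library of transcript 3′ ends, counted as UMIs (unique molecular identifiers, which mark single captured transcripts). The marrow cells were sampled after lysis of red blood cells, without a sort for T cells.

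An alpha-beta T cell recognizes antigen with an alpha and a beta chain, which cannot signal by themselves. Signals pass through the CD3 delta, epsilon and gamma chains (Cd3d, Cd3e, Cd3g) and the zeta chain (Cd247), which carry the motifs that the kinase Lck phosphorylates. Each beta chain ends in the constant region of Trbc1 or of Trbc2, and in an intact locus the choice follows from the group of the joined J segment. CD4 binds MHC class II and CD8, built from an alpha (Cd8a) and a beta (Cd8b1) chain, binds MHC class I, and mature T cells carry one of them. Several of the genes are not restricted to T cells: NK cells use the zeta chain below their own receptors and can hold unrearranged receptor transcripts, and dendritic cells of mice can carry CD4 or CD8 alpha. NZW mice are known from earlier genetic work to lack a stretch of the beta-chain locus that holds Trbc1 with the D2 and J2 segments, and no DNA was measured here.

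Trbc1 lies at chr6:41538218-41539881 and Trbc2 at chr6:41546730-41548352 of the mm10 build, both on the plus strand and 6848 bases apart. The Trbd2 segment and the Trbj2 segments lie between them in the GENCODE vM21 annotation. The coding parts of the 2 genes, 518 bases each, differ at 23 positions (95.56% identical), of which 22 fall in the last 143 bases. That stretch, from coding position 376 to 518, is shown because it holds nearly all coding letters by which a read can be given to one gene or the other, with the differing bases in capitals.
Trbc1: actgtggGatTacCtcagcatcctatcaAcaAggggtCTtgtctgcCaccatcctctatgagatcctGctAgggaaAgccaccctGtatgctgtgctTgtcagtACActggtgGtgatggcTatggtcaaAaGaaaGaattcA
Trbc2: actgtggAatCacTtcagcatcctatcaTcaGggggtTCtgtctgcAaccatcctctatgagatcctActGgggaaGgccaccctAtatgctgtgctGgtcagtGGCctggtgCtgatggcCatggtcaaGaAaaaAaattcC
Behind the coding part, 219 bases are annotated for Trbc1 and 174 for Trbc2, of which 122 align as identical. A few reads could still be given to the wrong gene, and this was not tested.

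Barcodes under 1000 UMIs, under 500 genes or above 10% mitochondrial UMIs were left out, as were likely doublets, and 36525 cells were left, 2359 to 5217 per mouse, with 7680053 to 16374845 UMIs per mouse. Clusters were named by marker genes that include none of the 10 genes, and the names carry the ending "-like" because no protein was measured. An exception was a lymphoid cluster of 212 cells without a name, which was set apart because Trbc2 and Cd3g were among its leading genes. T-cell-like cells numbered 712 (1.95% of the cells), 59 to 138 per mouse, with a median of 1396 UMIs and 106320 to 219261 UMIs per mouse in sum. All 15 T-cell markers were detected in them, at a summed level of 2494 to 5218 CPM (UMIs per 1000000 UMIs of the class sum), compared with 9.38 to 15.2 CPM in neutrophil-like cells. Markers of neutrophils were also high in the T-cell-like sums, at 99976 to 193691 CPM in NZB, 62387 to 121676 in NZW and 24993 to 84446 in NZBWF1, and came largely with 1 cluster of 107 cells that held 29 of the 61 T-cell-like cells of NZB 2. Their part in the results below was not tested beyond fits without that cluster. Of the 68444 barcodes called as cells by the authors, 1118 (1.63%) had a sequence that occurred in at least 2 libraries.

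The 10 genes were seen mainly in T-cell-like cells, in a cluster of 212 lymphoid cells that scored about equally for T-cell and NK-cell markers and stayed unnamed, and, for some of them, in NK-cell-like cells. Exceptions were Cd3d in neutrophil-like and macrophage-like cells, Cd4 in dendritic-cell-like and macrophage-like cells, and the CD8 chains in dendritic-cell-like cells, which held 134 of 427 Cd8a UMIs (31.4%) and 128 of 705 Cd8b1 UMIs (18.2%). Of 5201 Cd3d UMIs in the cells analyzed, 3386 (65.1%) were in neutrophil-like and 900 (17.3%) in T-cell-like cells. Classes were built from the same cells, so levels between classes are a description without a test. The unnamed cluster was picked by its Trbc2 and Cd3g, so high levels of these genes there follow in part from that choice.

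**Figure D1:**
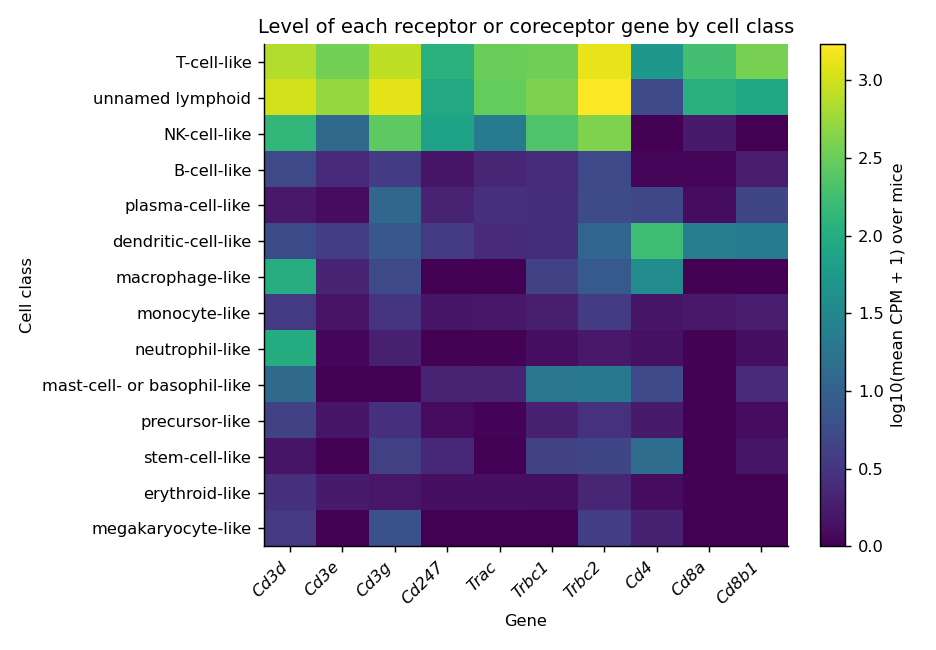
Each square gives the level of 1 gene (columns) in 1 cell class (rows) as log10 of the mean CPM plus 1 over the mice with at least 10 cells of the class. The CD3 and constant-region genes are highest in the T-cell-like and unnamed lymphoid rows, Cd3d is also seen in the neutrophil-like and macrophage-like rows, and Cd4 is highest in the dendritic-cell-like row. The unnamed lymphoid row was itself picked by Trbc2 and Cd3g.

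The CD3 chains and Trac were not called different between the strains in T-cell-like cells. Cd3d was at 609, 630 and 646 CPM in the 3 NZB mice, 857, 607 and 828 in NZW, and 848, 850 and 664 in NZBWF1. Cd3g was at 776, 518 and 900 CPM in NZB, 874, 648 and 997 in NZW, and 985, 921 and 926 in NZBWF1. The strains overlapped for Cd3g, and for Cd3d the NZB mice overlapped with NZW but lay below every NZBWF1 mouse. Cd3e had means of 340 ± 43.4, 337 ± 58.2 and 408 ± 118 CPM, and Trac of 293 ± 17, 342 ± 112 and 320 ± 17 CPM in NZB, NZW and NZBWF1 (SD, n = 3 mice each). Cd247, the zeta chain, ranged from 8.63 CPM in NZB 2 to 166 in NZBWF1 3. With edgeR's quasi-likelihood test on the summed UMIs and Benjamini-Hochberg adjustment over the 1977 genes tested, 0 of these 5 genes passed in any of 4 comparisons. Between NZB and NZW, the log2 difference was -0.21 for Cd3d (95% interval -0.64 to 0.21), 0.08 for Cd3e (-0.44 to 0.61), -0.14 for Cd3g (-0.56 to 0.28), -0.18 for Cd247 (-1.16 to 0.80) and -0.15 for Trac (-0.66 to 0.36). In 630 of the 712 cells (88.5%) at least 1 UMI of Cd3d, Cd3e or Cd3g was found, and after thinning each cell to 1000 UMIs in 571 (80.2%). The same share in erythroid-like cells, which should lack these genes, was 1.77% at a median of 9210 UMIs and 0.506% after thinning.

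Trbc1 was nearly missing from the NZW mice. In T-cell-like cells it was at 803, 276 and 493 CPM in NZB, 465, 469 and 508 in NZBWF1, and 0, 8.31 and 0 in NZW. No NZW mouse came near a mouse of the other strains. In all, 187 Trbc1 UMIs were counted in NZB, 256 in NZBWF1 and 1 in NZW, which is a ratio of 176 (95% counting interval 31.1 to 6972) for NZB and 164 (29.1 to 6497) for NZBWF1 over NZW. Trbc1 was called higher in NZB than in NZW (adjusted p = 4.79e-10, edgeR quasi-likelihood test with Benjamini-Hochberg adjustment), in NZBWF1 than in NZW (edgeR adjusted p = 2.59e-09), and in NZBWF1 than in the mean of the parents' logs (edgeR adjusted p = 2.5e-06). This last reference, called the parents' mean below, lies far under the average of the parents' levels where 1 parent is near 0. A hybrid with a level between the parents can then be called higher. The fitted log2 differences of 7.13, 6.89 and 3.33 depend on the small count that the method adds to the NZW values and are not sizes. Between NZBWF1 and NZB the log2 difference was -0.24 (interval -0.78 to 0.29, edgeR adjusted p = 0.823), but at 500 UMIs and 250 genes Trbc1 was called lower in NZBWF1 (-0.71, edgeR adjusted p = 0.00616). Trbc1 was the only one of the 9 genes tested to pass in the 3 comparisons, beside 1.62% of all genes called between NZB and NZW, 0.455% between NZBWF1 and NZW, and 0.405% against the parents' mean, and 0 of 9 passed between NZBWF1 and NZB, where 0.708% of all genes were called. These comparisons share mice. Cd4 had too few UMIs to be tested.

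Trbc2, the partner gene, was present in every mouse. Its T-cell-like level was 1071, 949 and 1103 CPM in NZB, 1369, 1380 and 1674 in NZW, and 1610, 1310 and 1504 in NZBWF1. Every NZB mouse lay below every mouse of the other strains. The T-cell-like sums of NZB also held the most neutrophil markers on average (135700 CPM, 83919 in NZW and 46115 in NZBWF1). RNA of other cells in a sum lowers the CPM of T-cell genes, and its part here was not tested. The same limit holds for Cd3d above, for Id2 below and for the sum of Trbc1 and Trbc2. For Cd3d, RNA of neutrophils also brings UMIs of the gene, at neutrophil-like means of 181 CPM (NZW), 111 (NZBWF1) and 6.45 (NZB). How far this shaped the strain levels of Cd3d in T-cell-like cells was not tested. For Trbc2, the log2 difference between NZB and NZW was -0.44 (interval -0.78 to -0.09), which did not pass after adjustment (adjusted p = 0.317, edgeR quasi-likelihood test). Trbc1 and Trbc2 together came to 1565 ± 325, 1477 ± 171 and 1956 ± 156 CPM in NZB, NZW and NZBWF1 (SD, n = 3 mice each).

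**Figure D2:**
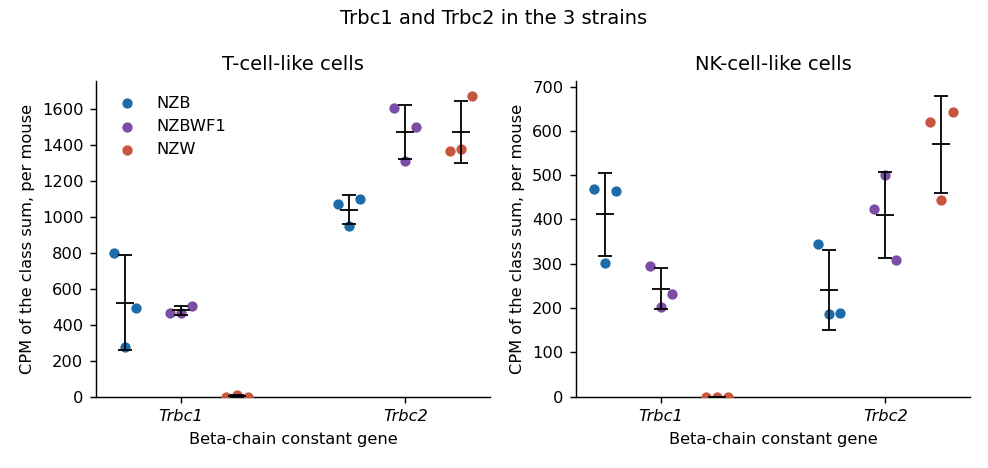
Points are the CPM of Trbc1 and Trbc2 in the summed T-cell-like (left) and NK-cell-like (right) cells of each mouse, and lines give the mean and SD of the 3 mice of a strain. The NZW points of Trbc1 lie at or next to 0 in both classes, while Trbc2 is present in all 9 mice.

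The share of Trbc1 among the UMIs of both beta-chain constant genes compares the 2 genes within a class. In T-cell-like cells this share was 42.9%, 22.5% and 30.9% in NZB, 22.4%, 26.4% and 25.3% in NZBWF1, and 0%, 0.599% and 0% in NZW. NZB and NZBWF1 overlapped, and NZW lay apart from both (exact permutation, 280 partitions of 9 mice, p = 0.0107, adjusted 0.0214 over the 6 shares tested). The means were 32.1 ± 10.2% in NZB and 24.7 ± 2.04% in NZBWF1 (SD, n = 3 mice each), a difference of -7.42 percentage points (two-sided exact permutation, p = 0.3). Without NZB 1 this difference was -2.04 and without NZB 2 -12.2 percentage points, and it was -11.6 at 500 UMIs and 250 genes and -16.9 at 5% mitochondrial UMIs (exact permutation, p = 0.1 in both). When cells needed 2000 UMIs and 1000 genes, the difference between NZB and NZW in this share fell to 17.2 percentage points (exact permutation of this pair, p = 0.4, and of the 3 strains, p = 0.293). With 3 mice against 3 the smallest p is 0.1, so no pair of strains could pass by itself. The NZW mice with 0 Trbc1 UMIs had 155 and 178 UMIs of both genes, which allows shares of up to 2.35% and 2.05% (upper bounds of exact 95% binomial intervals, which cover counting error only). Over all cells analyzed, where the mix of T-cell-like and NK-cell-like cells also enters, the share was 40.5%, 34.0% and 43.4% in NZB, 26.5%, 24.3% and 25.6% in NZBWF1, and 0%, 0.348% and 0% in NZW, without overlap between any strains (exact permutation, p = 0.00357, the smallest that 9 mice allow, adjusted 0.0107).

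**Figure D3:**
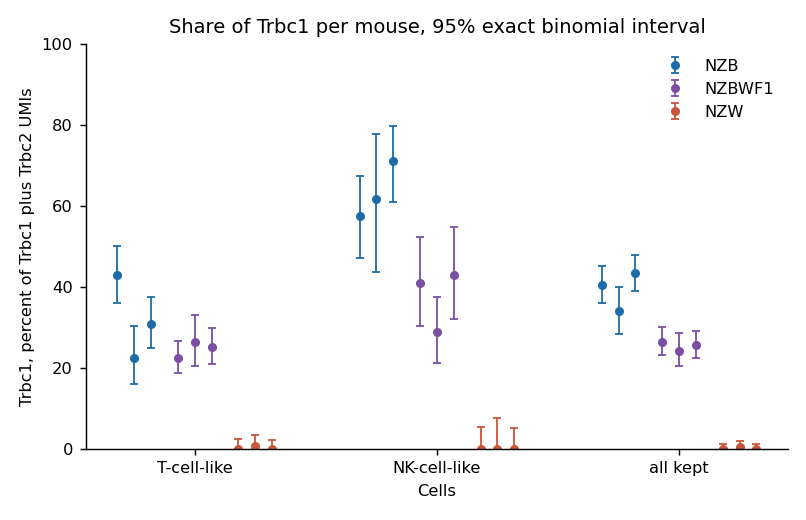
Points give the percent of Trbc1 among the UMIs of Trbc1 and Trbc2 in each mouse, in T-cell-like cells, NK-cell-like cells and all cells analyzed, with exact 95% binomial intervals. NZW mice stay between 0% and 0.599%, and NZBWF1 mice lie below NZB mice in NK-cell-like cells and in all cells.

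Single cells show the same pattern. Among the 201 T-cell-like cells of NZB mice, 21 held only Trbc1, 89 only Trbc2, 56 both genes, and 35 neither. Among the 318 cells of NZBWF1 mice the numbers were 23, 182, 68 and 45, and among the 193 cells of NZW mice 0, 149, 1 and 43. Before any filter, the 3 NZW libraries held 2 Trbc1 UMIs in their called barcodes, both in NZW 2, beside 528, 643 and 456 UMIs of Trbc2. The first was in a T-cell-like cell of 1253 UMIs that also held 6 of Trbc2, the second in a barcode of 557 UMIs that was not kept, and neither barcode sequence occurred in another library.

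NK-cell-like cells repeated the strain difference of Trbc1 in another cell class. They numbered 611 (42 to 89 per mouse). Of the 15 T-cell markers, 12 were detected in them, at a summed level of 2817 to 2910 CPM in NZB, 3286 to 3811 in NZW and 2908 to 3069 in NZBWF1, and Cd5, Cd6 and Themis were at 0 UMIs. Trbc1 was at 468, 303 and 463 CPM in NZB, 294, 203 and 233 in NZBWF1, and 0 in all 3 NZW mice. With 149 and 105 UMIs against 0, Trbc1 was at least 46.3-fold higher in NZB and at least 25.3-fold higher in NZBWF1 than in NZW, from a floor of 3 counts over the strain. It was called in both comparisons (adjusted p = 2.7e-13 and 2.42e-10, edgeR quasi-likelihood test with Benjamini-Hochberg adjustment over 2133 genes) and against the parents' mean (edgeR adjusted p = 1.18e-05). Trbc2 went the other way, with 345, 187 and 189 CPM in NZB, 621, 444 and 643 in NZW, and 424, 500 and 308 in NZBWF1. The NZB and NZW mice did not overlap in Trbc2, and NZB was lower by a log2 difference of -1.22 (SE 0.25, edgeR adjusted p = 0.00135). This call was lost at 500 UMIs and 250 genes (log2 -0.26, edgeR adjusted p = 0.634), at 2000 UMIs and 1000 genes (-0.80), at 5% mitochondrial UMIs (-0.82) and with no doublets removed (-0.73), and the call of Trbc1 against the parents' mean was lost at 2000 UMIs and 1000 genes and at 5% mitochondrial UMIs (edgeR adjusted p = 0.14 and 0.203). Together, the 2 genes were at 652 ± 162, 569 ± 109 and 654 ± 98.1 CPM in NZB, NZW and NZBWF1 (SD, n = 3 mice each).

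Of the 5 genes tested in NK-cell-like cells, 2 passed between NZB and NZW, where 2.53% of all genes were called. Trbc1 passed between NZBWF1 and NZW (0.656% of all genes) and against the parents' mean (0.328%), and 0 of 5 genes passed between NZBWF1 and NZB (0.563%), where Trbc1 was called lower in NZBWF1 at 500 UMIs and 250 genes (log2 -0.995 instead of -0.82, edgeR adjusted p = 3.17e-04). Cd3g was at 287, 403 and 405 CPM in NZB and at 260, 189 and 140 in NZW, and Cd3d at 73.9, 57.6 and 111 in NZB and at 158, 208 and 177 in NZW. Neither gene overlapped between these strains, but neither passed (log2 0.89, adjusted p = 0.0804, and log2 -1.06, adjusted p = 0.12, edgeR quasi-likelihood test). A fit with a replicate block called both genes, but the labels do not give the replicate numbers as pairs. Cd3g was called higher in NZB at 500 UMIs and 250 genes (1.301, edgeR adjusted p = 8.78e-06), with no doublets removed (0.82, edgeR adjusted p = 0.0423) and without NZB 1, NZW 1, NZBWF1 1 or NZBWF1 2. The direction of Cd3d turned at 500 UMIs and 250 genes (0.66, edgeR adjusted p = 0.0984) and at 5% mitochondrial UMIs (0.46, edgeR adjusted p = 0.82). Cd3e (14 UMIs) and Trac (22 UMIs) were scarce in the class and were not tested, but at 500 UMIs and 250 genes Cd3e was called higher than in NZW in NZB (log2 2.01, edgeR adjusted p = 1.24e-04) and in NZBWF1 (1.69, edgeR adjusted p = 0.00962). Cd8a had 1 UMI, and Cd4 and Cd8b1 had 0, which allows up to 0.491% of the 611 cells with a UMI.

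The share of Trbc1 in NK-cell-like cells was 57.6%, 61.8% and 71.0% in NZB, 41.0%, 28.9% and 43.0% in NZBWF1, and 0% in each NZW mouse (exact permutation, p = 0.00357, adjusted 0.0107). No strains overlapped. In NZB, 72 of 184 cells held only Trbc1, 26 only Trbc2 and 20 both genes. The share was 31.3 ± 14.4 percentage points higher than in the T-cell-like cells of the same mice in NZB and 13 ± 9.03 in NZBWF1 (SD, n = 3 mice each), in 6 of 6 mice. This difference between the classes was compared after its values were seen.

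The unnamed lymphoid cells, led by Ccl5, Trbc2, Cd3g, Xcl1, Il2rb and Trdc, held 86 Trbc1 UMIs in NZB, 53 in NZBWF1 and 0 in NZW, so that Trbc1 was at least 16-fold and at least 8.81-fold higher than in NZW (edgeR adjusted p = 4.84e-06 and 6.64e-04, quasi-likelihood test with Benjamini-Hochberg adjustment), beside 4.47% and 1.70% of all genes called in these comparisons. The other 5 genes tested there did not pass in any comparison with edgeR, and 0 of 6 passed between NZBWF1 and NZB (1.28% of all genes) or against the parents' mean (0.213%). Their Trbc2 level was 1499 ± 376, 1964 ± 385 and 1667 ± 257 CPM in NZB, NZW and NZBWF1 (SD, n = 3 mice each). In mast-cell- or basophil-like cells, Trbc1 was found in all NZB mice (14.4, 75.4 and 69.9 CPM, 14 UMIs in all) and in no other mouse. Trbc2 was there at 40.7, 64.6 and 61.8 CPM in NZW, at 0 in NZB, and at 8.58 CPM in 1 NZBWF1 mouse (11 UMIs). With so few UMIs these genes were not tested in that class.

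Most coreceptor UMIs in T-cell-like cells were of the CD8 chains. Of the 712 cells, 323 held UMIs of Cd8a or Cd8b1 only, 45 of Cd4 only, 344 of neither, and 0 of both, which allows a share of up to 0.421% of cells with UMIs of both (counting error only). With so many cells without a coreceptor UMI at a median of 1396 UMIs, this does not limit the share of cells that express both. The share of CD4 cells can be understated too, since the coreceptors were not found equally often. In the sub-cluster with the most Cd8b1, 217 of 274 cells held only Cd8 UMIs. In that with the most Cd4, 28 of 117 cells held only Cd4 UMIs. Among cells with a coreceptor UMI, the share with Cd4 was 14.3%, 11.1% and 0% in NZB, 15.4%, 13.8% and 25.0% in NZW, and 12.1%, 11.5% and 12.1% in NZBWF1. The strain means of 8.47%, 18.1% and 11.9% did not pass the test (exact permutation, p = 0.0929, adjusted 0.139). At 2000 UMIs and 1000 genes the means were 100%, 75.0% and 13.3% over the 8 mice with a value, so that the difference of NZB from NZW turned to 25.0 percentage points (exact permutation of this pair, p = 0.4, and over the 3 strains, unadjusted p = 0.0214). Without the cluster with neutrophil RNA, the difference of NZB from NZW was -10.7 instead of -9.59 percentage points (exact permutation of this pair, p = 0.1), and the unadjusted p over the 3 strains was 0.0286 (exact permutation). Without NZB 1 the difference was -12.5 percentage points (exact permutation of this pair, p = 0.1, and over the 3 strains, unadjusted p = 0.00714). It was smaller, at -2.67, -5.36 and -6.12, with T cells gated by markers per cell, without NZB 3 and without NZW 3 (exact permutation over the 3 strains, unadjusted p = 0.936, 0.168 and 0.429). The counts behind each share are small, with 24 to 91 cells per mouse at the limits used here. At 2000 UMIs and 1000 genes, T-cell-like cells were only 0.225%, 0.430% and 0.891% of the cells (means of NZB, NZW and NZBWF1). The shares at that limit rest on far fewer cells.

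Cd8a was at 222, 147 and 174 CPM in NZB, 185, 125 and 169 in NZW, and 342, 124 and 181 in NZBWF1. Cd8b1 was at 342, 233 and 450 CPM in NZB, 512, 291 and 245 in NZW, and 675, 266 and 347 in NZBWF1. For both genes the strains overlapped, and NZBWF1 1, the mouse with the most T-cell-like cells, was highest. Between NZB and NZW the log2 difference was 0.23 for Cd8a (interval -0.44 to 0.91) and 0.02 for Cd8b1 (-0.83 to 0.87), and neither passed in any comparison (edgeR quasi-likelihood test). Cd8b1 took 64.7 ± 6.41%, 67.5 ± 7.48% and 66.8 ± 1.28% of the UMIs of both CD8 chains in NZB, NZW and NZBWF1 (SD, n = 3 mice each, exact permutation, p = 0.821).

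Sub-clusters of the T-cell-like cells, built without the coreceptors, differed in them. In the largest, with 274 cells and led by Cd8b1, Trbc2 and Cd3g, 217 cells held only Cd8 and 3 only Cd4 UMIs. A sub-cluster of 117 cells led by Cxcr6, a chemokine receptor of tissue-homing T cells, and with Icos, a costimulatory receptor, was the reverse, with 28 cells with only Cd4 and 5 with only Cd8. Cd4 was at 221 CPM in the latter and at 11.5 in the former, and Cd8b1 at 16.2 and 988 CPM. Other sub-clusters were mixed, with 6 cells with only Cd4 and 29 with only Cd8 in that of 85 cells, 4 and 24 in that of 63, and 3 and 21 in that of 61. That of 85 cells scored second for B-cell markers. The cluster of 107 cells with neutrophil RNA held 0 cells with only Cd4 and 25 with only Cd8. Clusters are defined by genes of the same cells, and these numbers are a description. T-cell-like cells made up 2.71%, 1.28% and 2.44% of the NZB cells, 1.68%, 1.38% and 1.28% of the NZW cells, and 5.59%, 1.28% and 2.19% of the NZBWF1 cells, with overlap between all strains (exact permutation, p = 0.529, adjusted 0.634). At 2000 UMIs and 1000 genes the difference of NZB from NZW turned from 0.70 to -0.21 percentage points (exact permutation over the 3 strains, unadjusted p = 0.0393).

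Most Cd4 UMIs were not in T cells. Of 1198 Cd4 UMIs in the cells analyzed, 1004 (83.8%) were in the 2781 dendritic-cell-like cells. There Cd4 was at 242, 228 and 229 CPM in NZB, 162, 174 and 214 in NZBWF1, and 86.0, 106 and 97.8 in NZW. The strains did not overlap and lay in that order. Cd4 was higher in NZB than in NZW by a log2 difference of 1.29 (SE 0.16, adjusted p = 2.89e-09, edgeR quasi-likelihood test with Benjamini-Hochberg adjustment over 7724 genes) and in NZBWF1 than in NZW by 0.95 (SE 0.17, edgeR adjusted p = 8.68e-05), while NZBWF1 and NZB differed by -0.34 (edgeR adjusted p = 0.232). At 2000 UMIs and 1000 genes neither difference was called (log2 1.25 and 1.49, edgeR adjusted p = 0.594 and 0.772) beside 1.29 and 0.95 above. At 5% mitochondrial UMIs the first was larger (log2 3.69, edgeR adjusted p = 1e-06), and the second was larger but not called (2.46, edgeR adjusted p = 0.0639). Between NZBWF1 and NZB the difference turned to 0.23 at 2000 UMIs and 1000 genes (edgeR adjusted p = 0.952) and was called at 5% mitochondrial UMIs (-1.22, edgeR adjusted p = 0.0481). A Cd4 UMI was found in 29.0%, 14.8% and 25.7% of the dendritic-cell-like cells of NZB, NZW and NZBWF1 (means of 3 mice, class median 1727 UMIs), and after thinning to 1000 UMIs in 21.0%, 9.84% and 15.5%. In erythroid-like cells (median 9210 UMIs) the share with Cd4 was 0.424%, 0.418% and 0%, and after thinning 0%, 0.333% and 0%. This class was tested after its values were seen.

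The CD8 chains went with Cd4 in dendritic-cell-like cells. Cd8a was at 25.7, 49.9 and 26.8 CPM in NZB, 12.7, 12.6 and 11.9 in NZW, and 31.7, 23.4 and 13 in NZBWF1, and Cd8b1 at 36.5, 41.4 and 22.3, at 12.7, 10.1 and 4.77, and at 17.6, 13.2 and 27.1 CPM. Both were higher in every NZB mouse than in any NZW mouse, by log2 differences of 1.53 (SE 0.40, adjusted p = 0.00778) and 1.95 (SE 0.44, adjusted p = 0.00112, edgeR quasi-likelihood test). The Cd8a call was lost without NZB 2 (log2 1.09, edgeR adjusted p = 0.183), without NZW 3 (edgeR adjusted p = 0.0633) and with DESeq2 (adjusted p = 0.117). All 3 genes tested in the class therefore passed between NZB and NZW, beside 7.79% of all genes, 1 of 3 passed between NZBWF1 and NZW (1.85%), 0 between NZBWF1 and NZB (2.32%) and 0 against the parents' mean (0.427%). Of the T-cell markers, all 15 were detected in the dendritic-cell-like cells, at a summed level of 107 to 159 CPM in NZB, 81.1 to 127 in NZW and 151 to 169 in NZBWF1.

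Cd4 was compared in the 2 largest of 4 dendritic-cell-like clusters. The first, of 2169 cells, was led by Klk1 and held Siglech, the defining receptor of plasmacytoid dendritic cells, and Cd4 was at 312 ± 5.23, 174 ± 37.1 and 246 ± 52.7 CPM in NZB, NZW and NZBWF1 (SD, n = 3 mice each). NZB (306 to 315 CPM) lay above both other strains, and NZBWF1 (188 to 291) overlapped with NZW (134 to 208). With the mice of a strain summed, Siglech was at 2567, 773 and 1529 CPM in this cluster in NZB, NZW and NZBWF1. Cd209a, another dendritic cell marker, was at 37.0, 219 and 103 CPM. The part of the cell mix in the strain differences of this class was not tested. In a cluster of 511 cells led by Ly6d, Cd4 was lower, at 15.6 ± 14.5, 2.74 ± 4.74 and 14.4 ± 6.93 CPM, and the other 2 clusters had 68 and 33 cells. Cd4 lies at chr6:124864692-124888221 (minus strand), and of 15 genes tested within 200 kb of it in dendritic-cell-like cells, 3 were called between NZB and NZW. Lag3, the neighbouring CD4 homolog and inhibitory receptor, was higher in NZB by 1.18 on the log2 scale (edgeR adjusted p = 1.36e-04), Ptms by 0.43 (edgeR adjusted p = 0.0057), and Usp5 was lower (-0.94, edgeR adjusted p = 0.0333).

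In macrophage-like cells, where Cd4 was scarce, the order of the parents was turned. Cd4 was at 0, 11.7 and 7.13 CPM in NZB, 35.0, 75.8 and 64.6 in NZW, and 49.5, 57.6 and 19.9 in NZBWF1 (54 UMIs, too few to be tested). The NZB mice lay below all others, but with class sums of 109012, 85323 and 140175 UMIs their values rest on single UMIs. Neutrophil markers were at 316222 to 398479 CPM in this class, and their part was not tested. The log2 difference of Cd4 between dendritic-cell-like and macrophage-like cells of the same mouse, with 10 CPM added, came to 3.97 ± 0.62, 0.69 ± 0.36 and 1.96 ± 0.82 for NZB, NZW and NZBWF1 (SD, n = 3 mice each, exact permutation, p = 0.00357, adjusted 0.00714 over 4 such comparisons chosen after the values were seen). With macrophage-like values of NZB near or below the 10 CPM added, these sizes depend on that choice.

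**Figure D4:**
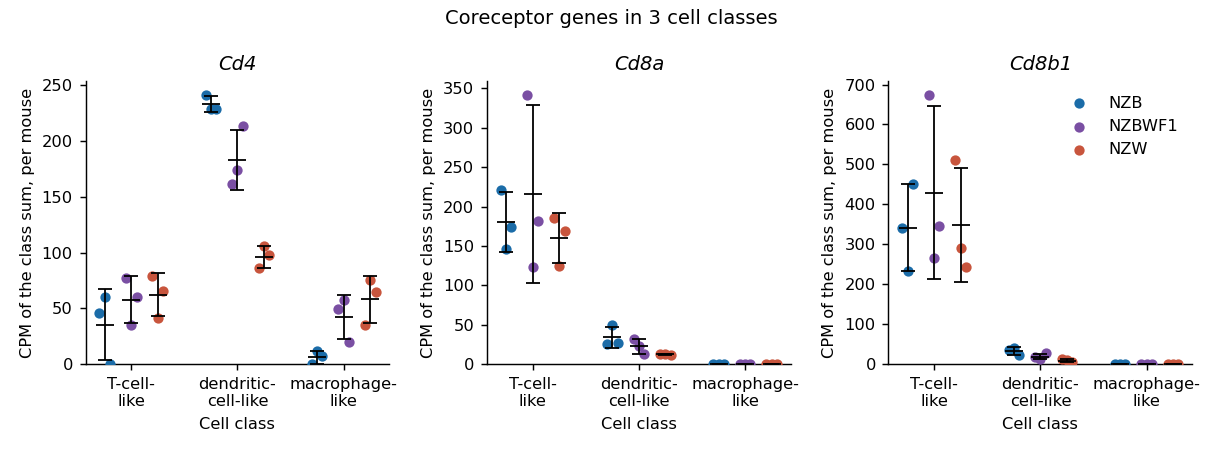
Points are the CPM of Cd4, Cd8a and Cd8b1 in the summed T-cell-like, dendritic-cell-like and macrophage-like cells of each mouse, with the mean and SD of each strain as lines. In dendritic-cell-like cells Cd4 runs from 228 to 242 CPM in NZB and from 86.0 to 106 in NZW, and the CD8 genes are at most 49.9 CPM.

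Cd3d was abundant in neutrophils of 2 of the 3 strains. In the 12146 neutrophil-like cells it was at 221, 136 and 184 CPM in NZW, 136, 94.5 and 101 in NZBWF1, and 6.60, 6.74 and 6.03 in NZB. The NZB mice lay far below all others, and 1 NZBWF1 mouse equaled the lowest NZW mouse. The log2 difference between NZB and NZW was -4.64 (SE 0.23, 24.9-fold, adjusted p = 2.93e-10, edgeR quasi-likelihood test with Benjamini-Hochberg adjustment over 8499 genes), and NZBWF1 was higher than NZB by 3.90 (edgeR adjusted p = 1.35e-08) and higher than the mean of the parents' logs by 1.58 (edgeR adjusted p = 4.48e-05). On the CPM scale, the NZBWF1 mean of 111 lay between 6.45 in NZB and 181 in NZW. Cd3d was lower in NZBWF1 than in NZW by -0.75 (edgeR adjusted p = 0.0316), a call that was lost in 6 of 9 fits without 1 mouse (NZB 1, NZB 3, NZW 1, NZW 3, NZBWF1 2 or NZBWF1 3, edgeR adjusted p up to 0.189), at 500 UMIs and 250 genes (edgeR adjusted p = 0.136) and with no doublets removed (edgeR adjusted p = 0.063). It was the only one of the 10 genes with enough UMIs to be tested in the class, and 12.1% (NZB and NZW), 3.80% (NZBWF1 and NZB), 1.28% (NZBWF1 and NZW) and 0.412% (parents' mean) of all genes were called. This class too was tested after its values were seen.

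The partners of Cd3d were nearly absent from the same cells. Neutrophil-like cells held 34 UMIs of Cd3g, 4 of Cd3e, 2 of Trac and 1 of Cd247 beside the 3386 of Cd3d, and the 15 T-cell markers summed to 9.38 to 15.2 CPM. A Cd3d UMI was found in 1.69%, 34.4% and 24.8% of the neutrophil-like cells of NZB, NZW and NZBWF1 (means of 3 mice, class median 2374 UMIs), and after thinning to 1000 UMIs in 0.717%, 18.6% and 12.2%. In erythroid-like cells the share was 0.097%, 2.61% and 1.23%, and after thinning 0%, 0.423% and 0.307%. In barcodes of fewer than 100 UMIs, which stand for free RNA, Cd3d was at 15.4 to 20.3 CPM in NZB, 46.2 to 64.7 in NZW and 25.6 to 56.1 in NZBWF1. Neutrophil-like cells held 78.8% of all Cd3d UMIs of NZW, 58.5% of NZBWF1 and 14.2% of NZB.

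Within neutrophil-like cells of NZW and NZBWF1, Cd3d was higher in clusters with genes of mature neutrophils. In the cluster with the most Elane, a protease of early granules, Cd3d was at 32.0 ± 17.4 CPM in NZW, 21.9 ± 1.99 in NZBWF1 and 2.29 ± 3.96 in NZB (SD, n = 3 mice each). In a cluster led by Ly6g it was at 286 ± 32.0, 144 ± 24.7 and 8.33 ± 2.58 CPM, and in a cluster of 1453 cells led by Retnlg, a gene of mature neutrophils, at 455 ± 119, 267 ± 55.4 and 13.2 ± 5.90 CPM. In all 8 clusters with 10 cells in each mouse, the NZW mean was above the NZBWF1 mean and this above the NZB mean. In T-cell-like cells the strain means of Cd3d were 628, 764 and 787 CPM in NZB, NZW and NZBWF1, and the log2 difference between the classes in the same mouse, with 10 CPM added, was -5.28 ± 0.07, -2.03 ± 0.11 and -2.73 ± 0.27 (SD, n = 3 mice each, exact permutation, p = 0.00357, adjusted 0.00714).

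**Figure D5:**
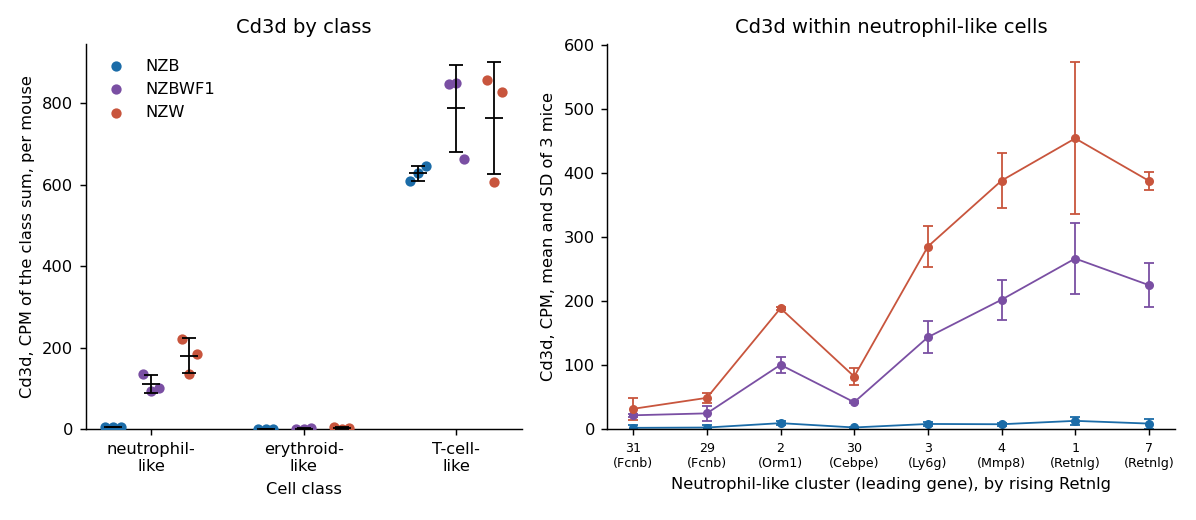
The left panel gives the CPM of Cd3d in the summed neutrophil-like, erythroid-like and T-cell-like cells of each mouse with mean and SD, and the right panel the mean and SD of 3 mice in each neutrophil-like cluster, ordered by rising Retnlg. NZB stays at or below 13.2 CPM in all neutrophil-like clusters, while NZW lies at 32.0 CPM in the cluster with the least Retnlg and at 455 and 388 in the 2 clusters with the most.

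Macrophage-like cells followed, with Cd3d at 193, 197 and 188 CPM in NZW, 124, 106 and 96.4 in NZBWF1, and 9.17, 0 and 14.3 in NZB (NZB and NZW log2 -4.27, edgeR adjusted p = 4.68e-07, beside 2.50% of all genes called). Cd3d was also higher in NZBWF1 than in NZB (log2 3.39, edgeR adjusted p = 5.89e-04, beside 0.555%), and was not called between NZBWF1 and NZW (-0.88, edgeR adjusted p = 0.414) or against the parents' mean (1.25, edgeR adjusted p = 0.303), where 0.222% of all genes were called in each. With 3 Cd3d UMIs in NZB, compared with 91 in NZW and 71 in NZBWF1, the fitted differences that include NZB are not sizes. In the same cells, all 10 neutrophil markers were detected, at a summed level of 316222 to 398479 CPM, compared with 451721 to 486034 in neutrophil-like cells, and the part of neutrophil RNA in this value was not tested.

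Cd3d lies at chr9:44981786-44987339 on the plus strand, 1354 bases from Cd3g (chr9:44969572-44980431, minus strand), with which it is transcribed in opposite directions, and Cd3e follows at chr9:44998740-45009627. Of 22 genes counted within 200 kb of Cd3d, 7 were tested in neutrophil-like cells and 0 were called in any comparison. Their log2 differences were -1.07 to 0.12 between NZB and NZW, -0.14 to 1.51 between NZBWF1 and NZB, and -0.25 to 0.45 between NZBWF1 and NZW. The -1.07 and the 1.51 were of Mpzl3 (edgeR adjusted p = 0.15 and 0.066), in the same direction as Cd3d. The windows from 250 bases before to 50 after the starts of both genes (RefSeq, mm10) are shown because Cd3d and Cd3g parted in neutrophil-like cells. Capitals mark the ETS core GGAAG and the CEBP motif TTNNGNAA, on either strand.
Cd3d, chr9:44981536-44981835, plus strand: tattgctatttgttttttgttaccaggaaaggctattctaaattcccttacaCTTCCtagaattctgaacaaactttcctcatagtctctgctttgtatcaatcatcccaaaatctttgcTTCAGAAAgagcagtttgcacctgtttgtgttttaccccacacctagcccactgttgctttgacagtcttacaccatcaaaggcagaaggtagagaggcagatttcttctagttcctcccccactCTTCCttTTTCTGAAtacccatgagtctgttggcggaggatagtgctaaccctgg
Cd3g, chr9:44980382-44980681, minus strand: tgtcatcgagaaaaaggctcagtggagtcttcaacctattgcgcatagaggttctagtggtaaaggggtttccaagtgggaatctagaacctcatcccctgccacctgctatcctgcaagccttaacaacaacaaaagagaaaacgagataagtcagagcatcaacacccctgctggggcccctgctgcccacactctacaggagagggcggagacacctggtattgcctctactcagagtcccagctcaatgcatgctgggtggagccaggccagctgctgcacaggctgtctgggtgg
GGAAG occurred 2 times in the Cd3d window and 0 times in that of Cd3g, and is found in 71.4% of 32851 such windows. TTNNGNAA occurred 2 and 0 times (40.7% of windows), the RUNX core TGTGGT 0 and 0 times (16.8%), and the GATA core AGATAA 0 and 1 times (11.2%). The windows are of the reference strain, and these matches are a description.

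Summed over all cells of a mouse, UMIs alone could not tell fewer cells of a type from less RNA per cell. Dendritic-cell-like cells, which held most Cd4 UMIs, were 350 of 2359, 650 of 4776 and 347 of 3119 cells in NZB. In NZW they were 135 of 4051, 215 of 4792 and 178 of 4599 cells. In NZBWF1 they were 113 of 2468, 382 of 5144 and 411 of 5217 cells. The part of this cell mix in the differences of Cd4 was not tested. In these sums Cd3d was lower in NZB than in NZW (log2 -2.03, edgeR adjusted p = 0.0127), and Cd4 (2.06, edgeR adjusted p = 1.14e-05) and Trbc1 (edgeR adjusted p = 0.00197, 483 UMIs against 1) were higher. These 3 of the 10 genes stood beside 18.5% of all 12475 genes called. Between NZBWF1 and NZB, Cd3d (1.61, edgeR adjusted p = 0.0491) was higher and Cd4 (-0.88, edgeR adjusted p = 0.00967) lower, beside 10.7% of all genes, and between NZBWF1 and NZW, Cd4 (1.18, edgeR adjusted p = 0.006) and Trbc1 (edgeR adjusted p = 0.0155) were higher, beside 2.08%. The call of Cd3d between NZBWF1 and NZB was lost without any 1 of 7 mice (all but NZW 1 and NZW 2, edgeR adjusted p up to 0.129, log2 1.31 to 1.82 over the 9 fits), and that of Trbc1 between NZBWF1 and NZW without any 1 of the 3 NZW mice (edgeR adjusted p up to 0.175). At 2000 UMIs and 1000 genes Cd4 was called in none of the 3 comparisons of strains (NZB and NZW log2 1.23, NZBWF1 and NZB 0.088, NZBWF1 and NZW 1.31, edgeR adjusted p = 0.327, 0.958 and 0.468), and the direction between NZBWF1 and NZB was turned. At 5% mitochondrial UMIs Cd4 was called between NZB and NZW and not between NZBWF1 and either parent (log2 -0.89 and 1.13, edgeR adjusted p = 0.104 and 0.196). Against the parents' mean, 0 of 10 genes passed with edgeR (0.970% of all genes called), 1 at an unadjusted p under 0.05, and 1 with DESeq2.

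Other genes of the receptor pathway were rarely called. Of the lists of other receptor chains, proximal signalling, costimulation and brakes, and transcription factors, 2, 14, 12 and 11 genes were tested in T-cell-like cells and 2, 10, 10 and 10 in NK-cell-like cells. Id2, an inhibitor of E proteins, was the only one to pass, and was lower in the T-cell-like cells of NZB than of NZW (log2 -0.98, SE 0.26, edgeR adjusted p = 0.0386), which is 1 of 39 genes beside 1.62% of all genes, and 0 of 32 in NK-cell-like cells beside 2.53%. Its level was 452, 173 and 269 CPM in NZB, 521, 582 and 715 in NZW, and 452, 496 and 538 in NZBWF1, so that NZB lay below NZW without overlap. In the other comparisons 0 of these genes passed with edgeR in either class, beside 0.405% to 0.708% of all genes in T-cell-like and 0.328% to 0.656% in NK-cell-like cells. At an unadjusted p under 0.05, each list held 0 to 3 genes per comparison, beside 92 to 208 of all 1977 genes in T-cell-like and 79 to 243 of all 2133 genes in NK-cell-like cells. Over the 9 receptor and coreceptor genes tested in T-cell-like cells, the median log2 difference between NZB and NZW was -0.14, compared with -0.01 over all 1977 genes. Its direction was not stable, with 0.20 at 5% mitochondrial UMIs (8 genes tested) and -0.004 at 500 UMIs and 250 genes (10 genes tested). The median was -0.44 over the 11 transcription factors, 0.56 over the 2 other receptor chains, -0.14 over the 12 genes of costimulation and brakes, and -0.05 over the 14 of proximal signalling. The lists were chosen with results of these data known.

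Across 121 sums of 1 class in 1 mouse (14 classes), the genes that varied most like the mean of Cd3d, Cd3e and Cd3g on log2(CPM + 10) were Tcf7 (Pearson r = 0.937), Zap70 (0.927), Gimap3 (0.911), Il2rb (0.899) and Gimap4 (0.896). Tcf7, a transcription factor of T-cell development, is one of the markers used to name the T-cell-like class, Zap70 is the kinase that binds phosphorylated CD3 and zeta chains, and Il2rb is a chain of the interleukin 2 and 15 receptors. Among the genes described, r was 0.950 for Trbc2, 0.954 for Trac, 0.877 for Cd247, 0.759 for Cd8a, 0.755 for Cd8b1, 0.706 for Trbc1 and 0.153 for Cd4. Points of 1 mouse share a library, and r is a description.

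The variable segments gave few UMIs, since the libraries hold 3′ ends. Over all cells, 128 Trav genes had 105 UMIs, 35 Trbv genes 48, 6 Trdv genes 30, 1 Trgv gene 36 and 6 Tcrg-V genes 18, while Traj genes had 2 and Trbd and Trbj genes 0. Trbv genes had 18, 15 and 15 UMIs in the NZB, NZW and NZBWF1 mice. The use of the D2 and J2 segments could therefore not be measured in any strain.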

How the data were processed

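UMI counts per gene and barcode were made by the authors with Cell Ranger 3.1.0 on the mm10 build (bcl2fastq 2.20), per the submitters' processing notes, and deposited as 1 merged matrix of the 9 libraries, as whole counts without normalization. The sources used here do not say whether merging thinned the libraries. Barcodes were assigned to mice by their suffix, read as the place in the deposited list of libraries, which no source states. The study's limits on barcodes were used (minimum 1000 UMIs and 500 genes, maximum 10% mitochondrial UMIs). Doublets were scored per mouse from simulated pairs, and 2526 were removed, which left 36525 cells. Clusters (scanpy 1.11.5, leidenalg 0.10.2, 30 components, 15 neighbours, resolution 2) were built without the 10 genes, without the receptor segments and without genes that differed between strains. They were named by marker genes, and the unnamed lymphoid cluster was set apart by Trbc2 and Cd3g among its leading genes. Classes depend on these rebuilt names.

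For each class, the UMIs of a mouse's cells were added up, and the mouse was the unit. Classes of at least 10 cells in a mouse were fitted with edgeR 4.0.16 (TMM, filterByExpr, robust quasi-likelihood test, threshold 0.05 after Benjamini-Hochberg adjustment over all genes of the class) in 1 fit of the 3 strains. The contrasts were the hybrid against the average log level of its parents, and each pair of strains. Standard errors are the log2 difference divided by the square root of F, and 95% intervals use the t quantile at each gene's degrees of freedom. Shares were tested by exact permutation of mice between strains. The fits were first tested on simulated counts with known changes. The alternatives covered the limits on barcodes, doublets, clusters, DESeq2 1.42.0, the filter on low counts, leaving out each mouse, and a replicate block.

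The text names the 10 genes in every comparison, pathway genes that were called (at most 8 per class), receptor segments, and the 5 genes most like the mean of the CD3 chains. The genes and lists were chosen with earlier results of these data known. The fits without the cluster with neutrophil RNA, the comparisons between 2 classes, and tests in classes other than T-cell-like, NK-cell-like and all cells were added after the values were seen. Of the gene identifiers, 99.62% were found in GENCODE vM21. No protein sequences were used here.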

Additional observations from a re-analysis of the deposited data

Results flagged for a closer look

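Strain differences of the same gene were not alike in 2 cell classes, by exact permutation of the 9 mice with Benjamini-Hochberg adjustment over 4 comparisons chosen after the values were seen. Cd3d, neutrophil-like minus T-cell-like cells, differed between the strains with an adjusted p of 0.007142 (log2 means -5.28 in NZB, -2.03 in NZW and -2.73 in NZBWF1). Cd4, dendritic-cell-like minus macrophage-like cells, also gave an adjusted p of 0.007142 (3.97, 0.69 and 1.96), with only 54 Cd4 UMIs in all macrophage-like cells. The Trbc1 share, NK-cell-like minus T-cell-like cells, gave an adjusted p of 0.042857 (31.3, -0.20 and 13 percentage points), in which the NZW values are fixed near 0 by the near absence of Trbc1. For Trbc2, NK-cell-like minus T-cell-like cells, the p was 0.15.

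Trbc1 was also counted in barcodes outside the comparisons. Called barcodes that were not kept held 511 Trbc1 UMIs in NZB and 293 in NZBWF1, compared with 1 in NZW, beside 830, 854 and 757 UMIs of Trbc2 in the same order. Barcodes of fewer than 100 UMIs held 64 Trbc1 UMIs in NZB, 35 in NZBWF1 and 0 in NZW.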

How the results depend on the processing

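Trbc1 kept its direction and its calls in T-cell-like cells under 22 alternatives for each of its 3 comparisons (highest edgeR or DESeq2 adjusted p 0.0432). Only a filter of at least 10 counts in every mouse gave 0 calls there, and it removes Trbc1 itself, since NZW has 1 UMI. With that filter the number of the 10 genes called in T-cell-like cells was 0 against the parents' mean, 0 between NZB and NZW and 0 between NZBWF1 and NZW, in NK-cell-like cells 0, 1 and 0, and in all cells 1 between NZBWF1 and NZW. At 500 UMIs and 250 genes, Trbc1 was called lower in NZBWF1 than in NZB (1 gene in T-cell-like and 1 in NK-cell-like cells), 2 between NZBWF1 and NZW in NK-cell-like cells (Cd3e and Trbc1), and 1 against the parents' mean in all cells. At 2000 UMIs and 1000 genes, where too few T-cell-like cells were left for edgeR, the numbers were 0 (parents' mean) and 1 (NZB and NZW) in NK-cell-like cells and 1 (NZBWF1 and NZB) and 0 (NZBWF1 and NZW) in all cells. With at most 5% mitochondrial UMIs they were 0 (parents' mean) and 1 (NZB and NZW) in NK-cell-like cells and 7, 1 and 1 (NZB and NZW, NZBWF1 and NZB, NZBWF1 and NZW) in all cells. In all cells, DESeq2 called 1 gene against the parents' mean, and a filter of at least 1 count left 1 between NZBWF1 and NZB. Leaving out each mouse gave 0 to 1, 3 to 5, 1 to 2 and 1 to 3 calls in all cells (parents' mean, NZB and NZW, NZBWF1 and NZB, NZBWF1 and NZW).

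At 2000 UMIs and 1000 genes the Trbc1 share in T-cell-like cells differed by 17.2 percentage points between NZB and NZW instead of 31.9 (exact permutation of the pair, p = 0.4), the Cd4 share by 25.0 instead of -9.59 (exact permutation of the pair, p = 0.4, over the 3 strains, p = 0.0214), the T-cell-like percent by -0.21 instead of 0.70 (exact permutation, p = 0.1), Cd4 in all cells by 0.088 on the log2 scale between NZBWF1 and NZB, and Cd4 in dendritic-cell-like cells by 1.25 (NZB and NZW), 0.23 (NZBWF1 and NZB) and 1.49 (NZBWF1 and NZW). With at most 5% mitochondrial UMIs the last 2 of these were -1.22 and 2.46. The Cd4 share without the cluster with neutrophil RNA differed by -10.7, and the Cd8b1 share by 1.15 with all variable genes and 0.35 after thinning. Leaving out each mouse, the NZB minus NZW differences ranged from 26.5 to 36.7 (Trbc1 share, T-cell-like), -12.5 to -5.36 (Cd4 share) and -7.00 to 0.16 (Cd8b1 share). Cd3d in neutrophil-like cells, NZBWF1 against NZW, was not called at 500 UMIs (-0.74) and with no doublets removed (-0.71), and was -0.93 to -0.53 without each mouse. The causes were not tested.

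The replicate numbers were not taken as pairs, since the labels give them no shared origin and not every pair correlated by over 0.1. Residuals of same-numbered mice correlated by -0.017 to 0.314, over 0.1 in 6 of 9 pairs per class. In all cells, pairs of numbers 1 and 2 correlated by 0.152 to 0.303 and pairs of number 3 by -0.017 to 0.04. Of 9 mice, 8, 7 and 6 correlated best with their own number in T-cell-like, NK-cell-like and all cells. This is a hint of shared numbers from the data and not from the design. The study mentions batches without saying which mice each held. A replicate block gave 4 instead of 2 calls in NK-cell-like cells (NZB and NZW, with Cd3d and Cd3g added), 2 instead of 0 (parents' mean), 5 instead of 3 (NZB and NZW) and 3 instead of 2 (NZBWF1 and NZW) in all cells, and the same number in the T-cell-like comparisons. All genes called between NZB and NZW in T-cell-like cells numbered 32, compared with 72 with the block, 60 with at least 1 count, 89 at 500 UMIs, 9 with at most 5% mitochondrial UMIs and 11 with the strict filter. Calls among all genes, over the alternatives other than leaving out a mouse, ran from 1 to 42 (parents' mean, 8 as reported), 3 to 85 (NZBWF1 and NZB, 14) and 1 to 25 (NZBWF1 and NZW, 9) in T-cell-like cells, from 0 to 9 (parents' mean, 7), 14 to 113 (NZB and NZW, 54), 2 to 22 (NZBWF1 and NZB, 12) and 3 to 21 (NZBWF1 and NZW, 14) in NK-cell-like cells, and from 57 to 560 (parents' mean, 121), 606 to 2168 (NZBWF1 and NZB, 1330) and 143 to 638 (NZBWF1 and NZW, 260) in all cells. Without 1 mouse they ran from 4 to 23, 6 to 63 and 5 to 11 in T-cell-like cells and from 45 to 352, 536 to 1388 and 137 to 305 in all cells, in the same order. With 106320 to 219261 UMIs per mouse, T-cell-like sums limit what can be seen of Cd4, Cd247 and the segments.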
